A study of Mus musculus with 7 samples.

Results

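Histones package DNA into nucleosomes, and their RNAs were followed here in cultured mouse cortical neurons. The set holds 10 listed genes, of 18193 genes that the array annotation names, and was chosen from results of these arrays, so its values are given as a description, and where members are counted past a threshold of the fit, the share over all probe sets stands beside the count. Of the 10, 4 are replication-dependent histone genes (*H1f2*, *H1f4*, *H2ac19* and *H2bc21*), and the others (*H1f0*, *H1f10*, *H2az1*, *H2az2*, *H3f3b* and *Macroh2a1*) are replacement histone genes. A probe set is a group of short probes that together read 1 transcript, and a probe set was used if its annotation named 1 listed gene and nothing else and its name did not end in _x_at, which marks probes that also match other transcripts. By that rule 13 probe sets covered 9 genes, 2 probe sets with _x_at were left out, and no probe set was named for *H1f0*, which was therefore not analysed here.

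RNA came from primary cultures of C57/Bl6J embryonic cortex, taken at embryonic day 16 and kept for 16 days in vitro. In the luciferase group (n = 4, replicates 1 to 4) a lentivirus carried a short hairpin RNA against luciferase for 2 weeks. Mice have no luciferase gene, so the hairpin served as the control for hairpins against other genes. The blank group (n = 3, replicates 5 to 7) received no virus, and the authors left out 1 further blank sample for quality. Both groups share strain, tissue, age and time in culture. The comparison therefore asks what differs after virus and control hairpin, and virus and hairpin cannot be told apart. The human H1 promoter of the vector belongs to a small non-coding RNA and has no relation to histone H1. The cultures hold glia beside neurons, each group is a set of cultures with no litter or culture day named, and the spread between arrays may thus be technical. In such bulk RNA, fewer cells of a type and less RNA per cell cannot be told apart.

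Replication-dependent histones are made in S phase, when new DNA has to be packaged. Their genes lie in clusters and have no introns, and most of their mRNAs end in a stem-loop in place of a poly(A) tail. Replacement histones are made throughout the cell cycle from genes that lie apart, give polyadenylated mRNAs and supply chromatin in cells that no longer divide, such as neurons. Linker histones (the H1 proteins) bind DNA where it enters and leaves the nucleosome, whereas variants of the core histones H2A and H3 mark particular regions. The standard Affymetrix labelling starts from poly(A) tails, so for the replication-dependent genes the arrays read mainly polyadenylated transcripts. *H2bc21* was grouped by its place in a histone gene cluster, although its product H2BE is known from olfactory neurons, which do not divide.

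The levels are RMA intensities on a linear scale (RMA corrects the background, makes the distributions of the arrays alike and combines the probes of a probe set). A level has no unit beyond the array, and nothing is read from the levels of different probe sets set side by side. A level under 50 was treated by the authors as absent expression, and 2 of the 13 member probe sets lay under 50 on all 7 arrays. Differences below are luciferase minus blank on the log2 scale, with a standard error (SE) and 95% interval from limma, a linear model across all 22748 probe sets that reached 50 on at least 1 array. A probe set counts as called where its adjusted p does not exceed 0.05 and it differs 1.5-fold or more. In that model 953 probe sets were called, of which 69.2% were higher in luciferase neurons. That share was 56.8% after quantile normalization and 43.8% after centring every array on its median. The median difference over all probe sets was 0.06, 0.001 and -0.04 in these cases. Correlation between arrays was at least 0.9885 within a group and at most 0.9852 between groups.

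Across the members the direction differed by gene, and it differed inside the replication-dependent class. Luciferase neurons held less *H1f2* and *H2ac19* RNA and more *H2bc21*, *H2az1* and *H2az2* RNA than blank neurons, whereas the groups overlapped in *H1f10*, *H3f3b* and *Macroh2a1*. Of the 13 member probe sets, 6 had every luciferase array above every blank array and 4 had every luciferase array below. Among them are untested probe sets under 50 on all arrays, that of *H1f4* above and 1438204_at of *H1f2* below. The shares that follow cover tested probe sets only. Over all tested probe sets, 22.5% and 12.3% had groups that do not overlap in these directions. Past the adjusted p were 5 higher and 3 lower of the 11 tested member probe sets, beside 16.2% and 8.26% of all tested probe sets. With the 1.5-fold threshold added, 2 were higher and 2 lower, beside 2.90% and 1.29% of all tested probe sets. *H2ac19* left the first count without blank replicate 5 or blank replicate 6, *H2az1* without blank replicate 5 or with arrays centred on the median, and 1 of the *H2az2* probe sets with that centring. Both probe sets called higher were those of *H2bc21*. One of them (1455095_at) left the second count with 16 added before the logarithm. It reached 50 on luciferase arrays alone, so it entered both counts through the group where it is high. It was not tested under the stricter filters (at least 100 on 1 array, or at least 50 on all 7). Since the members were chosen from this contrast, these counts are no test of the members, and nothing is read from them.

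**Figure D1:**
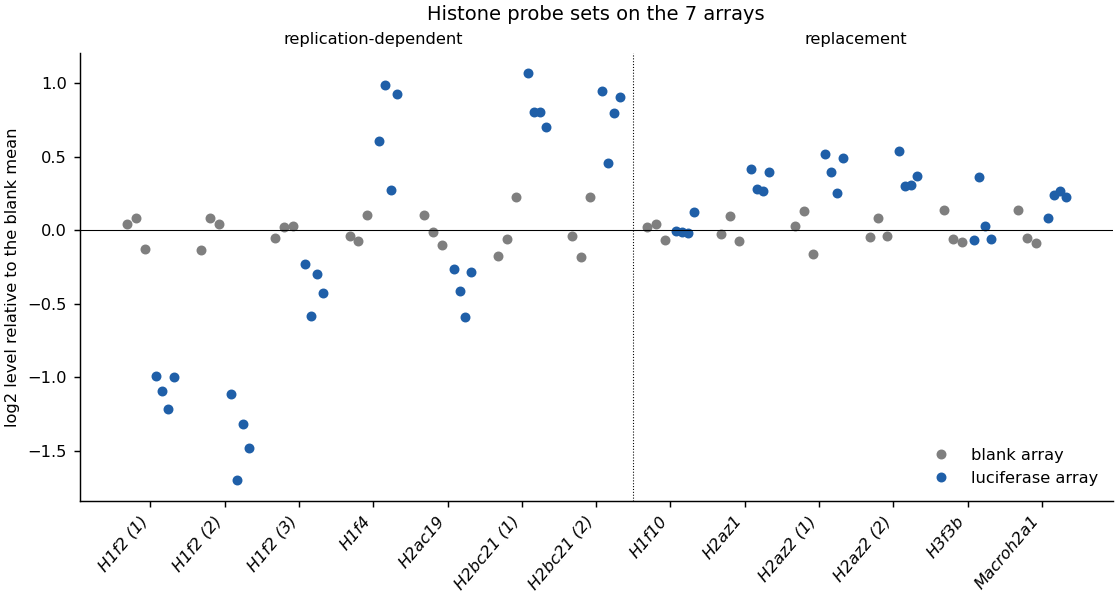
Level of each of the 13 member probe sets on each array, as log2 relative to the mean of the blank arrays (vertical axis), for blank arrays (grey, n = 3) and luciferase arrays (blue, n = 4); numbers in brackets tell probe sets of 1 gene apart. The luciferase points lie below the grey ones in *H1f2* and *H2ac19*, above them in *H1f4*, *H2bc21*, *H2az1* and *H2az2*, and among them in *H1f10*, *H3f3b* and *Macroh2a1*.

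The linker histone genes *H1f2* and *H1f4* encode the replication-dependent subtypes H1.2 and H1.4, both among the main H1 proteins of somatic cells. Their promoters are shown because both genes carry the same set of elements while their measured levels lay in opposite directions. The *H1f4* level lay under 50 on every array, and no link between elements and levels was tested. The sequences are from RefSeq (GRCm38.p6), which held promoters of 9 of the 10 listed genes, and run over the 250 bases before the transcription start, 5′ to 3′ on the strand of the gene. Capitals mark the H1 box (AAACACA, an element of H1 genes), the CCAAT box (CCAAT) and a TATA-like element (TATANA), each searched on both strands.
H1f2 (chr13:23738557-23738806, plus strand): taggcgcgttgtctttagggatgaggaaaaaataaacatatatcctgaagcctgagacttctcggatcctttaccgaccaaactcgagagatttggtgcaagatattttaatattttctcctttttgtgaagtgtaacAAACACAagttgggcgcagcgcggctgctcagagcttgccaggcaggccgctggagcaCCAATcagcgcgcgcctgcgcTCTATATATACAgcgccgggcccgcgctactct
H1f4 (chr13:23622559-23622808, minus strand): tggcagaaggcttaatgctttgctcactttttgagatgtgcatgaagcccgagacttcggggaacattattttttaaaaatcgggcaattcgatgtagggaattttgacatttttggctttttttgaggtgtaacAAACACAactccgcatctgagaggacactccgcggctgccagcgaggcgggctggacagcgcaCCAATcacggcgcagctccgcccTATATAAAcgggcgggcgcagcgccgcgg
The H1 box began at position -112 in *H1f2* and -115 in *H1f4*, counted from the start site, the CCAAT box at -54 and -52, and overlapping TATA-like matches lay between the CCAAT box and the start site. No match of one motif overlapped a match of another. In windows of 300 bases (250 before and 50 after the start), the H1 box stood in 7.18% of 32851 promoters, the CCAAT box in 37.4% and the TATA-like element in 24.7%. A match describes letters and is not a measured binding site.

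*H1f2* had 3 probe sets, all lower in luciferase neurons. On the first (1416101_a_at) the luciferase arrays gave 275.0, 255.4, 235.5 and 273.6, and the blank arrays 561.7, 579.5 and 498.8. All luciferase arrays thus lay at about the same level, well under the lowest blank array. The means were 259.9 ± 18.5 (SD, n = 4) and 546.7 ± 42.4 (SD, n = 3), with luciferase neurons at 47.5% of blank (percents and folds follow from the means of the log2 values), a log2 difference of -1.07 (SE 0.087, 95% interval from -1.27 to -0.88). On the second (1436994_a_at) the luciferase arrays gave 96.6, 64.4, 83.8 and 74.9, and the blank arrays 190.8, 222.4 and 215.9. Here luciferase neurons stood at 37.8% of blank, and the log2 difference was -1.40 (SE 0.13, 95% interval from -1.70 to -1.11), with no overlap. Over 11 other settings (scalings, weights, a value added before the logarithm, each array left out) the difference ran from -1.17 to -1.03 on the first and from -1.50 to -1.24 on the second.

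The third *H1f2* probe set (1438204_at) stayed under 50 on every array. It gave 35.0, 27.5, 33.5 and 30.6 in luciferase neurons and 39.7, 41.7 and 41.9 in blank neurons. The order of the groups was that of the other probe sets, but the log2 difference was -0.38 (SE 0.099), and no fold is given at such levels.

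*H1f4* had a single probe set (1422398_at), also under 50 throughout. Its luciferase arrays gave 18.1, 23.6, 14.4 and 22.6, and its blank arrays 11.6, 11.3 and 12.8. Every luciferase array lay above every blank array, opposite to *H1f2*, and the arrays spread more in luciferase neurons (19.7 ± 4.3, SD, n = 4) than in blank neurons (11.9 ± 0.8, SD, n = 3). The log2 difference of 0.70 (SE 0.15) became 0.35 when 16 was added to each value before the logarithm, as low values make log differences large. The level lies where expression was treated as absent, so this is a difference in array signal.

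**Figure D2:**
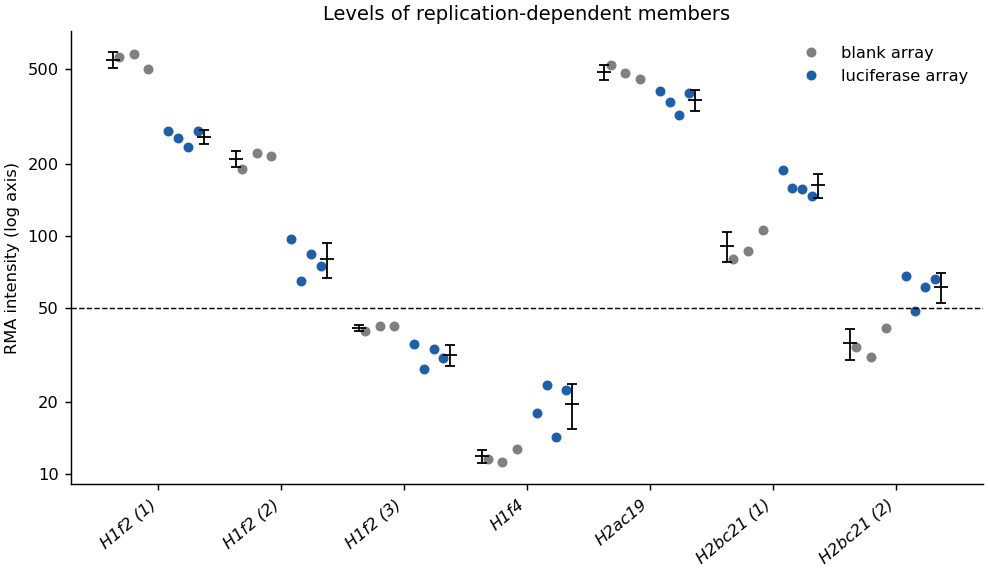
RMA intensity (vertical log axis) of the 7 probe sets of replication-dependent members on each blank array (grey, n = 3) and luciferase array (blue, n = 4); black bars give mean ± SD and the dashed line marks 50. The luciferase points of *H1f2* lie lower than the grey ones on its 3 probe sets, the third *H1f2* probe set and *H1f4* lie wholly under the line, and both *H2bc21* probe sets lie higher in luciferase neurons.

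*H1f10* encodes H1.10 (H1x), a replacement linker histone found in most cell types. Its probe set (1436517_at) gave 351.5, 350.2, 348.4 and 383.4 in luciferase neurons and 357.8, 363.4 and 336.1 in blank neurons. The groups overlapped, at 358.4 ± 16.7 (SD, n = 4) and 352.4 ± 14.4 (SD, n = 3). The log2 difference was 0.02 (SE 0.072), with a 95% interval from -0.14 to 0.19, and its sign turned in 5 of 11 settings, among them quantile normalization and centring on the median. Of the measured linker histone genes, 1 was thus lower, 1 overlapped and 1 lay higher at levels under 50.

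Of the core histone genes of the replication-dependent class, *H2ac19* encodes an ordinary H2A. Its probe set (1418366_at) gave 403.1, 363.9, 321.7 and 397.0 in luciferase neurons and 520.7, 480.5 and 452.1 in blank neurons. The highest luciferase array lay under the lowest blank array. The means were 371.4 ± 37.4 (SD, n = 4) and 484.4 ± 34.5 (SD, n = 3), with luciferase neurons at 76.5% of blank, a log2 difference of -0.39 (SE 0.097, 95% interval from -0.60 to -0.17). Over the 11 other settings the difference ran from -0.48 to -0.32. *H2ac19* has a near-identical copy, and a probe set shared by both, which is under 50 on all arrays, lay the other way (31.9 ± 2.1, n = 4, against 23.6 ± 0.3, n = 3, SD), so the identity of the transcript read is uncertain.

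*H2bc21*, known before as *Hist2h2be*, encodes the H2B variant H2BE. On its first probe set (1447854_s_at) the luciferase arrays gave 189.0, 157.8, 157.2 and 146.4, and the blank arrays 80.0, 86.5 and 105.6. Luciferase neurons thus lay above blank neurons with a wide gap. The means were 162.6 ± 18.3 (SD, n = 4) and 90.7 ± 13.3 (SD, n = 3), a 1.8-fold higher level and a log2 difference of 0.85 (SE 0.117, 95% interval from 0.58 to 1.11).

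The second *H2bc21* probe set (1455095_at) had the groups in the same order. It gave 67.8, 48.3, 61.1 and 65.7 in luciferase neurons and 34.1, 30.9 and 41.0 in blank neurons. The log2 difference was 0.78 (SE 0.135), and no fold is given because all blank arrays lay under 50. Over the 11 other settings the difference ran from 0.745 to 0.96 on the first probe set and from 0.58 to 0.89 on the second, lowest with 16 added before the logarithm. No promoter of *H2bc21* was in the table used, and none is shown.

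Of the replacement class, *H2az1* and *H2az2* encode the H2A.Z variants, which sit at the first nucleosomes of active genes and at enhancers. Their promoters are shown because both genes lay in the same direction, and no link between promoter and level was tested. The 250 bases before each start site are given, with CCAAT boxes in capitals (read ATTGG on the opposite strand).
H2az1 (chr3:137864237-137864486, plus strand): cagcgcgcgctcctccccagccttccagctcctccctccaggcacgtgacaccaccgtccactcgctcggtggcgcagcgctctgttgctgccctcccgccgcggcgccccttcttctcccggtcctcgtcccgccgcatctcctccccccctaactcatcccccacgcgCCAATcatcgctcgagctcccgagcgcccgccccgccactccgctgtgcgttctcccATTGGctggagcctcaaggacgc
H2az2 (chr11:6444444-6444693, minus strand): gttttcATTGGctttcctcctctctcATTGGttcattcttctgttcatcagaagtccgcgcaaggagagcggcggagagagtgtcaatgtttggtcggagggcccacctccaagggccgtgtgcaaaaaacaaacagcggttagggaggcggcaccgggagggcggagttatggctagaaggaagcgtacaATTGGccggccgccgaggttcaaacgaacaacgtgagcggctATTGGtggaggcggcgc
Neither window held an H1 box or a TATA-like element. In *H2az1* the CCAAT box began at positions -80 and -23, and once more at 23 after the start site. In *H2az2* it began at -244, -224, -59 and -17. The promoter of *H3f3b*, not printed, held 4 CCAAT boxes, a TATA-like element, the octamer ATTTGCAT (in 1.74% of all promoters) and 2 matches to TGACG, the core of the cAMP response element (in 20.8%). That of *H2ac19* held 2 CCAAT boxes and 1 match to TGACG, and that of *Macroh2a1* 1 match to TGACG. The windows of *H1f0* and *H1f10* held none of the 5 motifs searched.

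*H2az1* (1438091_a_at) gave 2869.1, 2605.5, 2586.8 and 2828.1 in luciferase neurons and 2106.4, 2301.4 and 2041.9 in blank neurons. Every luciferase array lay above every blank array. The means were 2722.4 ± 146.9 (SD, n = 4) and 2149.9 ± 135.1 (SD, n = 3), a log2 difference of 0.34 (SE 0.078, 95% interval from 0.17 to 0.52). A probe set that *H2az1* shares with a predicted gene lay the same way, with a log2 difference of 0.27 (SE 0.075, adjusted p = 0.03 from limma). The difference of *H2az1* stayed under 1.5-fold and lay between 0.245 and 0.39 over the 11 other settings.

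*H2az2* had 2 probe sets. On 1428029_a_at the luciferase arrays gave 1162.3, 1068.9, 966.5 and 1140.0, and the blank arrays 826.3, 889.0 and 726.2. On 1436596_at they gave 302.9, 257.1, 258.9 and 269.4, against 202.6, 221.2 and 202.9. The groups did not overlap in either. The log2 differences were 0.42 (SE 0.097, 95% interval from 0.20 to 0.63) and 0.38 (SE 0.083), both under 1.5-fold. Over the other settings they ran from 0.32 to 0.48 and from 0.28 to 0.42.

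*H3f3b* encodes H3.3, the replacement H3 that enters active genes and telomeres. Its own probe set (1430357_at) gave 69.3, 93.1, 74.0 and 69.8 in luciferase neurons and 80.0, 69.5 and 68.6 in blank neurons. The groups overlapped, and only luciferase replicate 2 lay above the blank arrays. The log2 difference was 0.07 (SE 0.115), with a 95% interval from -0.19 to 0.33. The 5 probe sets that H3.3 genes share with pseudogenes had differences from 0.02 to 0.23, and none passed the adjusted p from limma. On some of them every luciferase array lay above every blank array, and on the others the groups overlapped. The largest difference, 0.23, was without overlap (95% interval from 0.05 to 0.40, adjusted p = 0.059 from limma).

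*Macroh2a1* encodes macroH2A1, an H2A variant with a large extra domain that is found in repressed chromatin. Its probe set (1424572_a_at) gave 1340.1, 1490.6, 1522.8 and 1478.7 in luciferase neurons and 1388.4, 1216.1 and 1191.1 in blank neurons. Luciferase replicate 1 lay under blank replicate 5, and the other luciferase arrays lay above all blank arrays. The means were 1458.0 ± 80.8 (SD, n = 4) and 1265.2 ± 107.4 (SD, n = 3), a log2 difference of 0.21 (SE 0.084, 95% interval from 0.02 to 0.39). Over the 11 other settings the difference ran from 0.11 to 0.275.

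Set side by side with each gene represented by its probe set of highest level, the 4 replication-dependent genes ran from -1.07 to 0.85 on the log2 scale (median 0.16), with 2 above and 2 below 0. Those above 0 were *H1f4*, under 50 on all arrays, and *H2bc21*, which is in this class by its place in a gene cluster. The 5 replacement genes ran from 0.02 to 0.42 (median 0.21), all above 0. The median over all tested probe sets was 0.06. The medians of the classes differed by only -0.05 (replication-dependent minus replacement), and this was -0.22 with 16 added before the logarithm and -0.59 over probe sets that reach 50, which drops *H1f4*. It was 0.08 without luciferase replicate 3. The range over the genes of a class within a single array was also taken, relative to the blank mean. In luciferase neurons this range was 2.02 ± 0.068 (SD, n = 4) for replication-dependent and 0.456 ± 0.137 (SD, n = 4) for replacement genes. In blank neurons it was 0.265 ± 0.101 and 0.152 ± 0.053 (SD, n = 3). The members were chosen with these differences known, and the blank ranges are small in part because the blank arrays set the zero, so the ranges are a description.

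**Figure D3:**
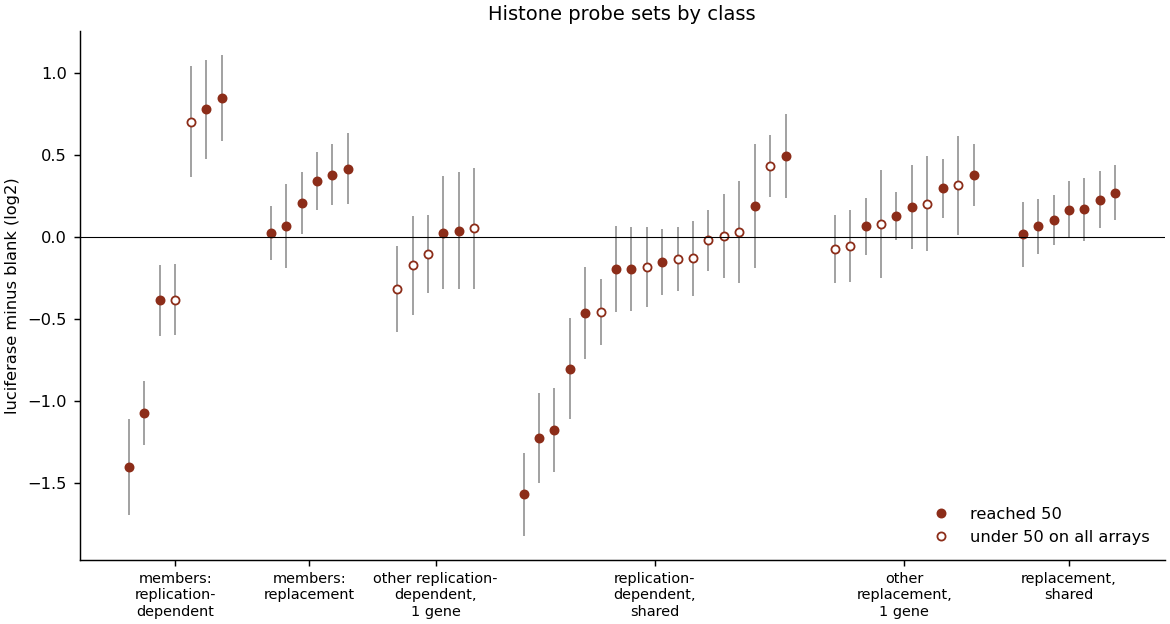
Luciferase minus blank on the log2 scale (vertical axis) with 95% interval for every usable histone probe set, sorted within class; filled points reached 50 on at least 1 array and open points did not. Replication-dependent probe sets spread from -1.57 to 0.85, and the shared ones reach furthest down, whereas replacement probe sets lie between -0.07 and 0.42.

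Other histone probe sets were read from the same fit. Most replication-dependent genes are so alike that a probe set reads several of them, and these cannot be named singly. Of 18 shared probe sets of this class, 10 were tested, with a median difference of -0.33, and 5 were lower and 1 higher past the adjusted p from limma. The median over all 18 was -0.17, and the groups overlapped in 11 of them. Over all tested probe sets 8.26% were lower and 16.2% higher. The lower ones include probe sets with genes in common and some whose luciferase arrays all lay under 50, so they are not separate results. Those with luciferase arrays under 50 were tested only because their blank arrays reached 50. They entered the count and the median of the tested probe sets through the group where they are high, so nothing is read from either. A probe set of 3 clustered H2B genes gave 439.8 ± 64.1 (SD, n = 4) with the hairpin and 1026.2 ± 114.0 (SD, n = 3) without, a log2 difference of -1.23 (SE 0.121, adjusted p = 0.00042 from limma). One of 11 genes, mostly H2B, gave 540.7 ± 73.2 and 1216.4 ± 102.0, with a difference of -1.18 (SE 0.114, adjusted p = 0.00037 from limma). These 2 probe sets have genes in common and are not independent. Another tested one, of a further H2B gene and an H2B pseudogene, overlapped between the groups, with a difference of -0.20 (adjusted p = 0.24 from limma). The other shared probe sets of H2B genes lay under 50 on all arrays. The tested shared probe set of H2A genes, which reads 10 of them, was not lower. It gave 3462.5 ± 631.8 (SD, n = 4) and 3051.4 ± 628.9 (SD, n = 3), a difference of 0.19 with overlapping groups (adjusted p = 0.44 from limma).

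A probe set of 13 H4 genes gave 26.5 to 34.6 in luciferase neurons and 81.4 to 98.8 in blank neurons, with adjusted p = 0.0001 from limma. As its luciferase arrays lay under 50, no fold is given. Another of 13 H4 genes differed by -0.47 with overlapping groups (SE 0.125, adjusted p = 0.026 from limma), and it lost the adjusted p without luciferase replicate 2 or 3 or blank replicate 5 or 6 (highest 0.091). Of the H3 probe sets, one shared by 8 genes was lower (35.8 ± 5.5 against 62.4 ± 10.5, SD, adjusted p = 0.0046 from limma). All its luciferase arrays lay under 50 as well (31.8 to 44.0). It and the first H4 probe set were tested only because their blank arrays reached 50, so nothing is read from their adjusted p. A second probe set of the same 8 H3 genes reached 50 on all 7 arrays and overlapped between the groups (-0.15, adjusted p = 0.24 from limma). One of 12 H3 genes overlapped too (-0.19, adjusted p = 0.24 from limma). An H3 probe set shared by 2 genes was higher (101.6 ± 9.8 against 72.4 ± 10.6, SD, adjusted p = 0.015 from limma), though not past the threshold without blank replicate 6 (0.057). *H2aw*, the only other replication-dependent gene with a tested probe set of its own, differed by 0.04 and 0.03 on 2 probe sets, with overlapping groups.

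Of the other replacement genes, *H2aj*, an H2A variant, was higher in luciferase neurons on both tested probe sets. It gave 1785.0 ± 139.8 (SD, n = 4) against 1372.3 ± 79.4 (SD, n = 3), a difference of 0.38 (SE 0.085, adjusted p = 0.013 from limma), and 0.30 on the other (adjusted p = 0.026 from limma). *H2ax*, which is phosphorylated at DNA breaks, differed by 0.13 (adjusted p = 0.18 from limma), *H3f3a*, the other gene of H3.3, by 0.18 (0.27), and *Cenpa*, the H3 of centromeres, by 0.06 (0.57). *H1f7* and *H1f8*, linker histones of germ cells, lay under 50. The 7 shared replacement probe sets had a median of 0.17, between 0.02 and 0.27, and 1 passed the adjusted p, that of *H2az1* and a predicted gene.

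Next came genes that escort histones and place them into chromatin. Of 29 tested, 5 passed the adjusted p as higher and 1 as lower, while 23 missed it, with a median of 0.08; over all tested probe sets 16.2% were higher and 8.26% lower. The count of higher genes was 11 with array weights, and that of lower genes was 2 or 3 with array weights, another variance model or another scaling. Higher were *Chaf1b* (0.58, adjusted p = 0.0031 from limma), a subunit of the factor that loads H3 and H4 behind replication forks, and *Asf1a* (0.56, adjusted p = 0.002 from limma), which hands H3 and H4 to the loading factors. *Ubn1* and *Ubn2*, partners of the HIRA complex that deposits H3.3, were higher by 0.41 and 0.47 (adjusted p = 0.01 for each from limma), whereas *Hira* itself differed by 0.22 (adjusted p = 0.16 from limma). *Nap1l5*, of the nucleosome assembly protein family, was lower, with a difference of -0.56 (2739.1 ± 104.7 against 4047.8 ± 44.6, SD, adjusted p = 0.00096 from limma). *Nap1l3*, of the same family, was higher by 0.25 (adjusted p = 0.028 from limma), and the other listed genes of the family missed the adjusted p.

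Replication-dependent histone mRNAs are cut after their stem-loop by a particle that holds the U7 RNA. Of 18 tested genes listed for the handling of these mRNAs, 3 were higher, 1 was lower and 14 missed the adjusted p. Not all of these genes belong to the particle. The median was 0.09, and the shares over all tested probe sets were the same 16.2% and 8.26%. The count of higher genes was 5 without blank replicate 7 and 6 with array weights, and 2 without blank replicate 5 or 6 or with arrays centred on the median. The lower gene was *Lsm11*, a protein of the U7 particle. It gave 535.9, 523.1, 554.9 and 810.4 in luciferase neurons and 1038.8, 897.8 and 934.3 in blank neurons, a difference of -0.68 (SE 0.147, adjusted p = 0.012 from limma). Luciferase replicate 4 lay nearest to the blank arrays. *Lsm10*, its partner, differed by 0.10 (adjusted p = 0.33 from limma), and *Slbp*, which binds the stem-loop, by -0.01 (adjusted p = 0.91 from limma). Higher were *Srrt* (0.45, adjusted p = 0.015 from limma) and *Ncbp2* (0.40, adjusted p = 0.011 from limma), which act at the mRNA cap, and *Snrpb* (0.32, adjusted p = 0.012 from limma), a core protein of splicing particles. *Srrt* did not pass without blank replicate 5 or 6, nor *Snrpb* with arrays centred on the median.

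Because replication-dependent histones go with S phase, genes of DNA replication and division were set beside them. Of 22 tested, 9 were higher and 0 lower past the adjusted p from limma, 13 missed it, and the median was 0.28, beside the 16.2% and 8.26% over all probe sets. The count of higher genes was 5 without blank replicate 5 and 5 without blank replicate 6. *Ccne2*, a cyclin of the entry into S phase, measured 204.3 ± 27.5 (SD, n = 4) beside 96.4 ± 11.1 (SD, n = 3) in blank neurons, a difference of 1.08 (SE 0.123, adjusted p = 0.00076 from limma). *Prim1*, a primase subunit, was higher by 0.56 (adjusted p = 0.0026 from limma), *Mcm5*, of the replicative helicase, by 0.51 (0.0089) and *Cdt1*, which loads that helicase, by 0.54 (0.02, though not without blank replicate 5 or 6). The proliferation markers *Mki67* and *Top2a* overlapped between the groups, with differences of 0.30 and 0.14 (adjusted p = 0.21 and 0.44 from limma). The summed level of the list was 9096 to 10539 in luciferase neurons and 7998 to 8045 in blank neurons. Such a sum follows its highest probe set, here *Pcna* (3403.3 ± 275.5 against 2817.7 ± 187.5, SD), which missed the adjusted p (0.051 from limma). It also includes genes under 50, so it only describes the list. The part of these genes in the histone values was not tested.

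Marker genes of the cell types that the cultures could hold were read as well. Beside the counts past the adjusted p below stand 16.2% higher and 8.26% lower over all tested probe sets. The sums below follow the probe sets of highest level and include genes under 50 where a list has any, so they only describe each list. Of 18 tested astrocyte markers 11 were higher, 0 lower and 7 not past the adjusted p, and their summed level was 61449 to 65734 in luciferase neurons and 50040 to 53782 in blank neurons. *Gfap* (1.19), *Aldh1l1* (0.86) and *Aqp4* (0.82) were among those higher, and *Gjb6* lay under 50. Of 6 tested progenitor markers 3 were higher and 0 lower (sums 4621 to 5103 against 3742 to 4006), with *Eomes* under 50. All 12 neuron markers reached 50, and 1 was higher and 1 lower (sums 50388 to 51971 against 49852 to 53206). Of 9 tested oligodendrocyte markers 1 was higher and 1 lower (sums 6492 to 7779 against 6831 to 7020). The lower one, *Mag*, reached 50 on blank arrays alone, so it was tested through the group where it is high. Vascular and meningeal markers summed to 693 to 902 against 1130 to 1244, where 1 of 6 tested was higher (*Pdgfrb*, 0.70) and 2 lower (*Dcn* and *Col1a2*). *Dcn* holds the largest share of these sums, at 421.5 ± 83.7 (SD, n = 4) against a blank mean of 834.7, and *Cldn5*, *Pecam1*, *Cdh5*, *Tek* and *Col1a1* lay under 50. *Col1a2* was likewise tested only because its blank arrays reached 50, so nothing is read from its place in the count or from that of *Mag*. Of 11 microglia markers 9 lay under 50, among them *Aif1* and *Cx3cr1*, and neither of the 2 tested passed (sums 295 to 333 against 327 to 426). The part of these cells in the histone differences was not tested.

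**Figure D4:**
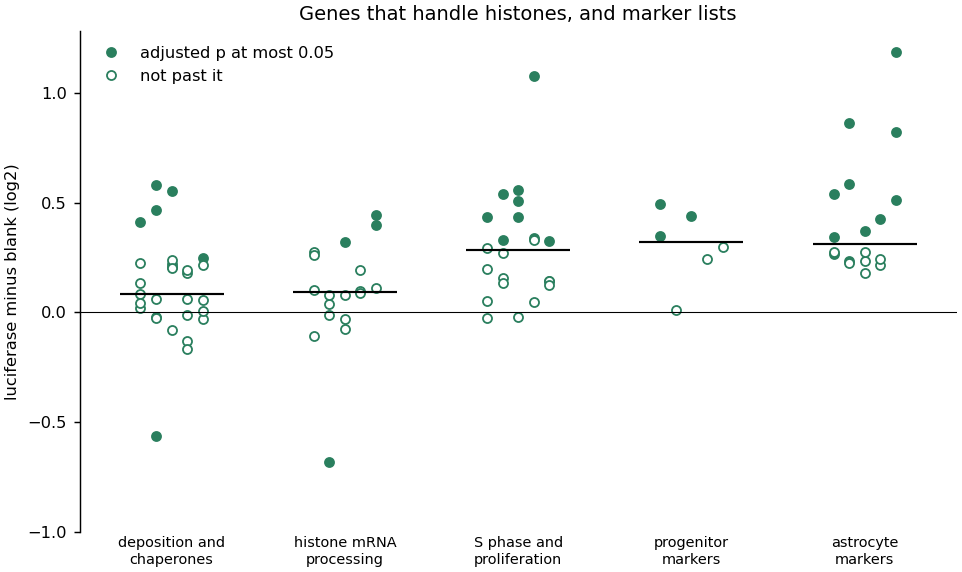
Luciferase minus blank on the log2 scale (vertical axis) for tested genes of 5 lists; filled points passed an adjusted p of 0.05 from limma, open points did not, and bars mark the medians. The bars of the deposition and mRNA processing lists lie at 0.08 and 0.09, and those of the S phase, progenitor and astrocyte lists at 0.28, 0.32 and 0.31.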

How the data were processed

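RNA of 4 luciferase and 3 blank cultures was hybridised to Affymetrix mouse expression arrays, 1 array each. The deposited intensity values, on a linear scale, were made by the authors with RMA (version: not given in the sources used here). No column belonged to another sample. As deposited, the blank columns sit 1 row below the luciferase columns. They were moved up 1 row, after which group means over 45037 probe sets had r = 0.9953 (0.4211 as deposited), and r was at least 0.986 in the rows around each member.

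Log2 values were fitted with limma 3.58.1 (lmFit, eBayes; R 4.3.3) as luciferase minus blank without covariates, with Benjamini-Hochberg adjustment over 22748 probe sets. Control probe sets (64) were left out, and so were those with _x in the name (2441) and those under 50 on all 7 arrays. The study's methods set both filters over the arrays of all its groups, which were not used here. A call needs an adjusted p not above 0.05 together with a 1.5-fold difference. Tables were made with Python 3.11.15 and pandas 2.3.3. The calculations were tested on simulated data. Precision is limited by having so few arrays.

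The members and all gene lists were chosen with earlier results of these data known. Named are all members, other histone genes with a tested probe set of their own, up to 4 genes a direction of each pathway list and defining markers. *Hira*, *Nap1l3*, *Lsm10*, *Slbp*, *Pcna*, *Dcn*, *Pdgfrb*, *Col1a2*, *Mag* and the probe sets of several genes joined them once values were seen. Genes are named from the array annotation through probe sets with 1 gene (34945 of them; 932 name several and 9160 none), matched to RefSeq GRCm38.p6 for 34741. In lists, the probe set of highest mean stands for a gene. Alternatives were other filters, kept _x probe sets, quantile normalization, median centring, 16 added before log2, other variance models and each array left out. RNA extraction is described differently in the labels (Trizol) and in the methods (a column kit).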

Additional observations from a re-analysis of the deposited data

Results flagged for a closer look

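Among the 13 member probe sets, checked for an array far from the others of the luciferase group, 1 stood out. In *H1f10* luciferase replicate 4 lay at 383.4, while the other luciferase arrays lay between 348.4 and 351.5, so the gap took a share of 0.913 of the range of the group. Chance alone flags about 1 group in 20 under this check.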

How the results depend on the processing

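No paired analysis was possible because the replicate numbers of the groups (1 to 4 and 5 to 7) share none. The 953 probe sets called became 726 to 1084 under the 9 other filters, scalings and variance models, and 900 to 1117 with each array left out in turn. The number of other histone and pathway genes past the adjusted p from limma was 20, 33 with array weights, 17 to 24 under the remaining settings, and 15 to 23 with an array left out. Of the member probe sets, 10 had groups that do not overlap, 9 with arrays centred on the median and 10 to 11 with an array left out. The difference of the class medians was -0.05, but -0.22 with 16 added, -0.59 over probe sets that reach 50 and -0.10 to 0.08 with an array left out (0.078 without luciferase replicate 3). The direction turned in *H1f10* and *H3f3b*, which were not called, and in no other member. The causes were not tested. Signal under 50 limits *H1f4* and the third *H1f2* probe set.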
